A study of Mus musculus with 2 samples.

Results

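Type 1 conventional dendritic cells (cDC1) of B16F10 melanomas, a transplanted mouse melanoma line, were examined among sorted live CD45+ cells, which are the blood-derived cells of a tumor. They were taken as barcodes that held at least 3 unique molecules (UMIs) of Xcr1 and Clec9a together. Barcodes with at least 3 UMIs of Ccr7 or of Siglech, with C1qa, C1qb and C1qc at 0.2% of their UMIs or more, or with more than 1 UMI of Cd3e, Cd3d and Cd3g or of Cd79a and Cd79b were left out. This rule found 216 of 12815 kept barcodes, 121 of 7086 in the control library and 95 of 5729 in the other. The hosts were C57BL/6 mice, either Usp18f/f, with a floxed Usp18 gene and no Cre, or Usp18f/f LysM-Cre, in which the Cre carried in the Lyz2 locus was to delete Usp18 from myeloid cells. Both groups therefore carried the floxed allele, were injected subcutaneously with the same tumor line and were sampled on day 14. Cells from 4 tumors of a group were pooled into 1 library, so each genotype is 1 sample. Every difference below lies between 2 pools, has no replicate check, and carries intervals that cover counting error only. LysM-Cre is active in macrophages, monocytes and neutrophils, and reaches dendritic cells only in part.

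cDC1 take up dying tumor cells and present their antigens on MHC class I to CD8 T cells, a process called cross-presentation. They depend on the transcription factors Irf8 and Batf3 and on the cytokine receptor Flt3, and they carry Xcr1, the receptor for the chemokine Xcl1, and Clec9a, a lectin that binds actin exposed on dead cells. Type I interferon acts on them through the receptor Ifnar1 and Ifnar2 and factors such as Stat2 and Irf9, which switch on interferon-stimulated genes. Usp18, itself such a gene, encodes a protease that removes the ubiquitin-like protein ISG15 from its targets and restrains signalling from this receptor. The question the design puts to these cells is what a myeloid deletion of Usp18 does to them.

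The members were deeply covered. Their median was 11955 UMIs in the control library and 11756 in the other, against 2840 and 4682 over all kept barcodes, and the median number of genes was 3179 and 3040. Both Xcr1 and Clec9a were seen in 111 of the 121 control cells and in 86 of the 95 others. Of the barcodes with at least 3 UMIs of the pair (136 and 119), the exclusion for CD3 transcripts was met by 4 and 14, for Ccr7 by 1 and 6, for Siglech by 4 and 3, for C1q by 5 and 2, and for CD79 by 1 and 2. Just inside the limit, with 3 UMIs, stood 5 and 12 cells, of which 5 and 11 held at least 3 UMIs of Naaa. Just outside it, with 2 UMIs, stood 9 and 10 barcodes, and 7 and 6 of them held as much Naaa. The libraries shared 8 barcode sequences, none of them a member.

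Both libraries mixed the sexes, in different parts, and the labels give no sex. Among cDC1 with transcripts of one kind only, 12 held Xist and 88 held Y-linked transcripts in the control library, against 72 and 17 in the other. Xist cells thus made up 12.0% (exact 95% interval 6.36 to 20.02) and 80.9% (71.2 to 88.5) of these cells. Over all kept barcodes the shares were 36.1% and 86.5%. Values within each sex are given below for some of the results only, and those in Xist cells rest on 12 control cells.

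The targeted gene was not lower in cDC1 of the library labelled knockout. Usp18 (ENSMUSG00000030107, chromosome 6, 121245906 to 121270917, plus strand, GRCm38) measured 25 UMIs in cDC1 of the control library, 16.5 CPM (UMIs scaled to the summed UMIs of these cells), and 68 UMIs in the library labelled knockout, 54.2 CPM. It was seen in 13 of 121 and in 29 of 95 cells, so the level was 3.28-fold higher (exact conditional interval 2.05 to 5.42). Since LysM-Cre reaches dendritic cells only in part, the level in these cells is no check of the label. B cells, taken for comparison, are much shallower, with medians of 1581 and 1874 UMIs. After each cell was thinned to 2000 UMIs, Usp18 was left in 3.31% and 6.38% of cDC1 (10.7% and 30.5% before) and in 1.90% and 3.03% of B cells (1.97% and 2.61% before). Thinning left out cells with fewer UMIs, which most B cells were, so their shares before and after cover different cells. At that depth the libraries' cDC1 differed by 3.08 points (-2.89 to 10.2). Thinned to 1000 UMIs the cDC1 shares were 0.826% and 7.37%, a difference of 6.54 points (1.27 to 13.6), and those of B cells 1.05% and 0.588%. The share in control cDC1 therefore cannot be told from that in B cells, and the ratio above rests on summed UMIs. Whether the Usp18 UMIs of B cells are stray or their own was not tested. In cells with Y-linked transcripts the ratio was 5.22 (2.48 to 11.0), and in Xist cells it was 1.27 (0.534 to 3.69). The reads of this method come from the 3' end and the labels do not say which exons are floxed, so transcripts from a deleted allele may be counted too.

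Lyz2, the lysozyme gene that holds Cre (ENSMUSG00000069516, chromosome 10, 117277331 to 117282321, minus strand), behaved as a second mark of the libraries. It gave 949 UMIs in 104 of 121 control cDC1, or 626 CPM, and 1 UMI in the 95 cells labelled knockout, a ratio of 786 (141 to 31096). Its 3 highest control cells held 40.5% of these UMIs. Lyz2 was also seen in 13.1% of control B cells, where it should be absent, at a median depth of 1581 UMIs. In B cells of the library labelled knockout the share was 0.580%. After each cell was thinned to 2000 UMIs, Lyz2 was left in 41.3% of control cDC1 and 23.2% of control B cells. The latter share covers only the deeper B cells, since those with fewer UMIs were left out.

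Transcripts that the rule does not use marked the cells as cDC1. Cadm1, an adhesion molecule of this lineage, stood at 114 CPM in control cDC1 and at 1.99, 10.4 and 14.9 CPM in control cDC2, migratory dendritic cells and plasmacytoid dendritic cells (pDC). In the library labelled knockout it stood at 108 CPM against 11.7, 12.6 and 12.97. Wdfy4, which cross-presentation of cell-bound antigen requires, was at 836 and 694 CPM, and no other dendritic population exceeded 159. Naaa, a lipid amidase, was seen in all 121 and all 95 cells. It was also frequent in cDC2, at 73.0% and 80.1%, but at 388 and 446 CPM against 2068 and 1748. cDC2 were taken as cells with Cd209a (185 and 136 cells), migratory cells by Ccr7 and Fscn1 (88 and 87), and pDC by Siglech (171 and 83). The rule for cDC2 also asked for no UMI of Xcr1 or Clec9a, and that for pDC for no UMI of Xcr1.

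Of 25 cDC1 identity genes in the feature table, 20 had at least 30 UMIs in cDC1 of each library. By description, since the cells were chosen on 2 genes of the same program, 17 of the 20 were at least 2-fold above all 3 other dendritic populations in both libraries. Over all 4608 genes so covered the share was 2.21%. The other 3 were transcription factors that neighbours share. Irf8 was at 2545 and 2465 CPM in cDC1 and higher in pDC. Batf3 was at 215 and 203 CPM, close to the 204 and 192 of migratory cells. Id2, a repressor that supports this lineage, was at 1289 and 1240 CPM.

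The genes with the widest margin over the other populations were named by rule. Xcr1 came first, but the rules fix its absence from cDC2 and pDC, so its rank is no result. After Xcr1 came Itgae (the CD103 integrin chain), at 259 and 268 CPM in cDC1 and at most 3.32 CPM elsewhere. Tlr3, a sensor of double-stranded RNA, followed at 184 CPM in both libraries and at most 5.31 CPM elsewhere. Next were Snx22, Rab7b, Sept3, Gcsam and Tlr11, a sensor of microbial profilin, and then Cadm1, Ppt1, Fzd1, Gramd2, Fam149a, Agpat3 and Wdfy4. At the other end stood Il2rg, Il7r, Irf4, Cers6, Il21r, Gngt2, Samsn1, Sirpa, Clec2i and Zeb2. Of these Irf4 and Sirpa are textbook marks of cDC2. Irf4 gave 2 UMIs in each library of cDC1, and Sirpa was at 12.5 and 16.7 CPM, against 244 and 217 in cDC2. The heat map of marker transcripts shows the same order by share of cells.

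**Figure D1:**
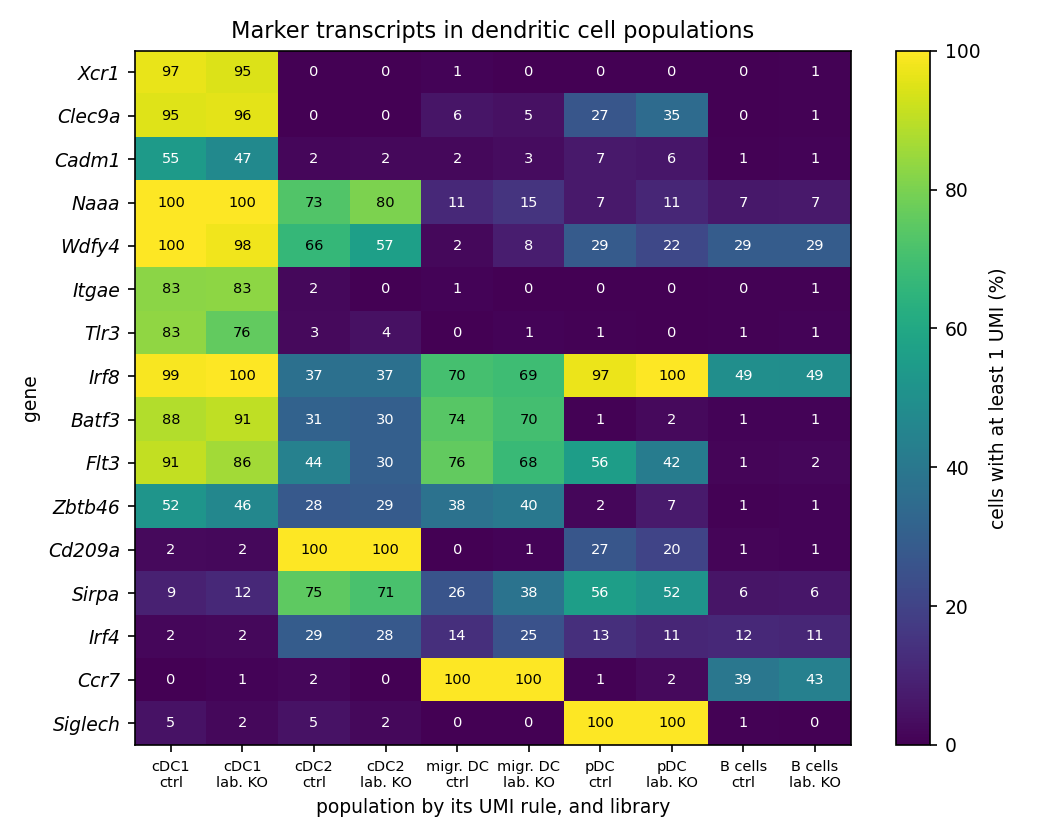
Share of cells (%, colour and printed value) with at least 1 UMI of each gene (rows) in 4 dendritic populations and in B cells, for the control library (ctrl) and the library labelled knockout (lab. KO). Xcr1 and Clec9a, which chose the cDC1, and Cd209a, Ccr7 and Siglech, which chose the others, are high by construction. By construction too, Xcr1 and Clec9a are absent from cDC2 and Xcr1 from pDC, and Ccr7 and Siglech are under 3 UMIs in each cDC1. Itgae is at 82.6% and 83.2% of cDC1 and at most 2.16% of the other dendritic populations.

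cDC1 made up 1.71% of the kept cells in the control library (exact 95% interval 1.42 to 2.04) and 1.66% in the library labelled knockout (1.34 to 2.02), a ratio of 0.971 (0.744 to 1.27). Of the cells of the 4 dendritic rules they were 21.4% (18.1 to 25.03) and 23.7% (19.6 to 28.2). The ratio was above 1 in Xist cells and could not be told from 1 in the others. Among Xist cells, cDC1 were 12 of 1564 (0.767%) against 72 of 3677 (1.958%), a ratio of 2.55 (1.39 to 4.69). Among Y-linked cells they were 88 of 2769 (3.18%) against 17 of 575 (2.96%), a ratio of 0.930 (0.558 to 1.55). With a mitochondrial limit of 5% the shares were 3.09% and 2.15%, a ratio of 0.694 (0.520 to 0.927).

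Genes of the cDC1 program that the rule did not use were level between the libraries. Each gene was given a log2 ratio of the libraries, with the control library as the denominator and 5 added to each CPM, for the 8259 genes with at least 20 UMIs over both. This scale understates the change of low genes. Cadm1 was at -0.08, Naaa at -0.24 and Wdfy4 at -0.27. Of 23 identity genes measured, 1 was at least 2-fold lower and none higher, with a median of -0.08. Over all genes measured, 1.14% were at least 2-fold higher, 0.593% were at least 2-fold lower, and the median was -0.01. The 1 gene was Ccr9, a chemokine receptor, with 23 UMIs in 16 control cells against 6 in 5 cells. Among growth factor receptors, Flt3 measured 243 and 210 CPM and Kit 110 and 74.9 CPM, log2 ratios of -0.20 and -0.52. Flt3 was at a ratio of 1.46 (0.979 to 2.25) in Xist cells and 0.611 (0.417 to 0.871) in Y-linked cells. Kit was at 1.04 (0.567 to 2.05) and 0.732 (0.412 to 1.22).

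Interferon-stimulated genes stood higher in cDC1 of the library labelled knockout. Of 51 such genes measured, 16 were at least 2-fold higher (background 1.14%) and none was at least 2-fold lower (background 0.593%). The median log2 ratio of the list was 0.56, and 48 of the 51 were above 0. Summed over the list, the level was 4088 CPM in control cDC1 and 6639 CPM in the others, 1.62-fold higher (1.57 to 1.68). The scatter plot of transcript levels shows the list above the diagonal, where its most abundant members lie within the 2-fold lines. An earlier look at these data led to the choice of this list, so the count is no independent evidence of its direction.

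**Figure D2:**
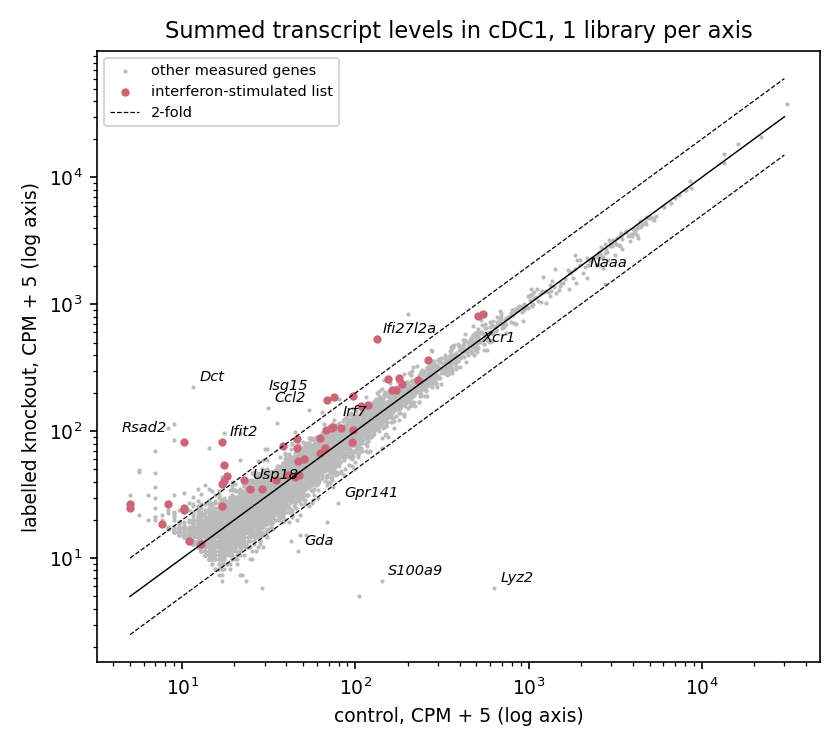
Summed level of each measured gene in cDC1, in CPM + 5 on log axes, control library (x, 121 cells) against the library labelled knockout (y, 95 cells). Red points are the 51 interferon-stimulated genes, the solid line is equality and the dashed lines are 2-fold. Rsad2, Ifit2 and Ifi27l2a lie above the upper line, and Lyz2, Gda and Gpr141 below the lower one. Dct above and S100a9 below come mostly from 1 and 3 barcodes that also hold genes of another cell type.

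The antiviral effectors gave the widest ratios. Rsad2, the enzyme viperin, gave 8 UMIs in 7 control cells and 97 UMIs in 14 cells labelled knockout, a 14.6-fold higher level (7.14 to 34.8). Those UMIs were uneven, since 3 cells held 67.0% of the 97, and the highest of them, with 33 and 21 UMIs, also held 40 and 12 UMIs of the monocyte gene Ly6c2. Without members that held genes of another type, Rsad2 gave 8 and 42 UMIs, 7.03-fold higher (3.26 to 17.3). Ifit2, which binds foreign RNA as part of the IFIT family, gave 18 UMIs in 9 cells and 97 in 25 cells, 6.50-fold higher (3.91 to 11.4). Ifit1 gave 5 and 27 UMIs, 6.52-fold (2.47 to 21.7). Ifit3 and Ifit1bl1 gave 0 UMIs in the control library and 27 and 25 in the other, which is at least 10.9-fold and 10.1-fold higher when control is set at 3 UMIs per library. Both stand above the list's median either way. The family's transcripts were few per cell, and Ifit1bl1 came from 5 cells. Much of the last 2 came from members that held genes of another type. Without those members Ifit3 gave 0 and 9 UMIs and Ifit1bl1 0 and 6, while Ifit2 gave 14 and 65 and Ifit1 4 and 17. In Y-linked cells Ifit1bl1 gave 0 UMIs in both libraries.

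Broader members of the list were seen in more cells. Ifi27l2a, a small interferon-induced protein, gave 194 UMIs in 46 of 121 cells and 665 UMIs in 70 of 95 cells. Its level was 128 against 530 CPM, 4.14-fold higher (3.52 to 4.88). B cells held it at least as often at a matched depth. After thinning to 2000 UMIs, Ifi27l2a was left in 14.9% and 44.7% of cDC1, against 70 of 211 and 66 of 132 B cells deep enough. Its shares in cDC1 are thus not above those in B cells. Whether the Ifi27l2a UMIs of B cells are stray or their own was not tested. Isg15 gave 96 UMIs in 28 cells and 213 UMIs in 44 cells, or 63.4 against 170 CPM, 2.68-fold higher (2.09 to 3.44). Irf7, a factor that amplifies interferon production, gave 107 UMIs in 35 cells and 227 in 51, 70.6 against 181 CPM and 2.56-fold higher (2.03 to 3.25). After thinning, Isg15 was left in 5.79% and 18.1% of cDC1 and in 1.90% and 5.30% of B cells. Irf7 was left in 9.09% and 19.1% of cDC1 and in 4.27% and 7.58% of B cells. Slfn1, Xaf1 and Oas3 were 3.94-fold (2.32 to 6.97), 2.86-fold (1.64 to 5.17) and 2.82-fold (1.59 to 5.196) higher. Oas3 was 1.05-fold (0.194 to 3.77) in Y-linked cells, and Xaf1 was 1.46-fold (0.512 to 5.71) in Xist cells, so neither passed 2-fold in both sexes.

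Abundant members moved less. Ly6e, a surface protein, was at 537 and 840 CPM, 1.56-fold higher (1.42 to 1.71), in 86.8% and 95.8% of cells. Ifitm3, which blocks virus entry, was at 508 and 809 CPM, 1.59-fold higher (1.45 to 1.75). Bst2, which tethers budding virus, was at 149 and 254 CPM, 1.70-fold higher (1.43 to 2.03). The 3 genes below 0 were Usp25 at -0.21, Trim25 at -0.08 and Herc6 at -0.05.

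Letters of the interferon-stimulated response element, a short sequence through which many genes respond to type I interferon, were looked for in promoters of these genes. The windows run from 250 bases before to 50 after a start in RefSeq (GRCm38.p6), and GAAANNGAAA was searched on both strands, overlapping matches included. Of the 51 genes, 40 matched a promoter by symbol, and 18 of them (45.0%) held the letters. Of all 32851 promoters 3.44% did, and of the 6435 measured genes with a promoter 3.96%. Among list genes at least 2-fold higher the letters stood in 7 of 15 (46.7%), and among the rest in 11 of 25 (44.0%). The promoters of Isg15, Ifit3 and Rsad2 are printed 5′ to 3′ on the gene's strand as examples of genes at least 2-fold higher whose window held a match, with matching letters in capitals. In Isg15 (chr4:156200769-156201068, minus strand) 3 overlapping matches form 1 run, which begins 78 bases before the start. In Ifit3 (chr19:34583279-34583578, plus strand) 2 matches lie on the opposite strand, and in Rsad2 (chr12:26456403-26456702, minus strand) 1 does.
Isg15: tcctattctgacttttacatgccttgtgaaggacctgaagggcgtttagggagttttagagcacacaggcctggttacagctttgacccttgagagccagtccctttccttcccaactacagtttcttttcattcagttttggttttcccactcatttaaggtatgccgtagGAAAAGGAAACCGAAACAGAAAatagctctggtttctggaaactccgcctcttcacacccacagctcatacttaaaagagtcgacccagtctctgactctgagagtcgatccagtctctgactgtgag
Ifit3: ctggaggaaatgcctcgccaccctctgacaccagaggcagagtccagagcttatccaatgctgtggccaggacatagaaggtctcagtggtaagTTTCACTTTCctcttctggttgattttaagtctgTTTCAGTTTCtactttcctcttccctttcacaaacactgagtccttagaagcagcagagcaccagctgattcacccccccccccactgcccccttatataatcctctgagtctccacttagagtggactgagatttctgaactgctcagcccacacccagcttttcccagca
Rsad2: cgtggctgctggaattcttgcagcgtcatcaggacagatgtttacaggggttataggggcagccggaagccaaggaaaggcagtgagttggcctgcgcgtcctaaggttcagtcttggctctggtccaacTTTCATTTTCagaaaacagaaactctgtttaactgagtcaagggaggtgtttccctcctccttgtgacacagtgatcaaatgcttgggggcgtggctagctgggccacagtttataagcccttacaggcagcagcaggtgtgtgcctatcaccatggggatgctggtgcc
The windows of Ifit2 and Irf7 held no match, nor did those of Xcr1 and Clec9a. Such letters are a description of the window, not evidence of binding.

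Per cell, more cDC1 of the library labelled knockout carried many interferon-stimulated transcripts, and the median was higher too. Each cell was thinned at random to 2000 UMIs, which left out 1 cell labelled knockout. Control cells then held 0 to 45 UMIs of the list with a median of 6, and cells labelled knockout 1 to 68 with a median of 9. The groups overlapped over almost the whole range. At least 10 list UMIs were held by 23 of 121 cells (19.0%) and by 43 of 94 (45.7%), a difference of 26.7 points (14.2 to 38.4). At least 20 were held by 9 of 121 (7.44%, 3.46 to 13.7) and by 18 of 94 (19.1%, 11.8 to 28.6), a difference of 11.7 points (2.67 to 21.5). Before thinning, 90.9% and 95.8% of cells had 20. Averaged over all possible draws, the thinned shares were 6.52% and 18.9%. Cells with at least 20 carried 26.7% of the list's thinned UMIs in the control library and 47.7% in the other. Usp18 was seen in 3 of the 9 and in 15 of the 18. Among the cells with under 20 list UMIs the medians were 6 and 8. Without the 3 members highest for the list in each library, the log2 ratio of the summed list was 0.71, against 0.70 with them. These limits of 10 and 20 were chosen after the values were seen.

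**Figure D3:**
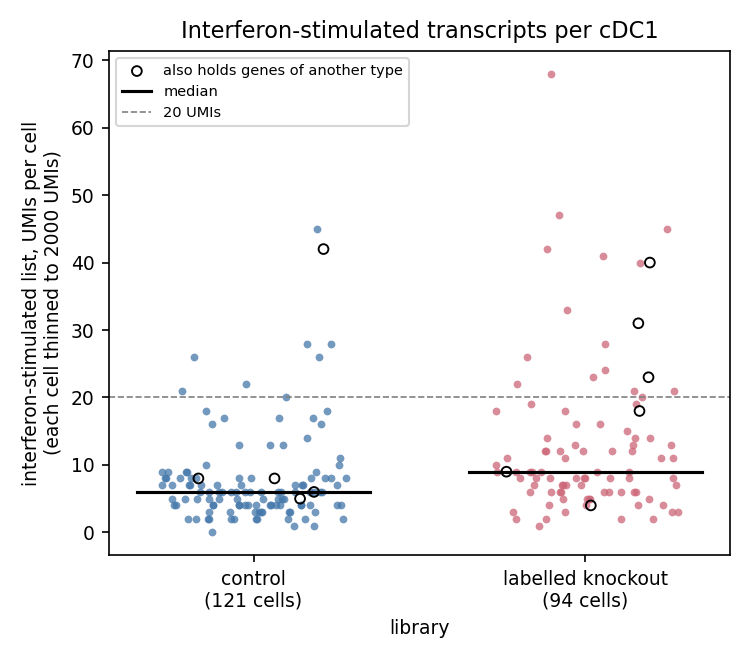
UMIs of the interferon-stimulated list in each cDC1 after thinning to 2000 UMIs, for the control library (121 cells) and the library labelled knockout (94 cells). Bars are medians, 6 and 9 UMIs, the dashed line is 20 UMIs, and open circles are cells that also hold genes of another cell type. The upper tail holds 9 control cells and 18 of the others.

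The list was higher within each sex. In Xist cells the summed level was 3669 CPM in control cDC1 and 6288 CPM in the others, 1.71-fold higher (1.58 to 1.86). In Y-linked cells it was 4172 and 6451 CPM, 1.55-fold higher (1.46 to 1.64). At least 20 list UMIs after thinning were held by 1 of 12 and 14 of 71 Xist cells, and by 7 of 88 and 3 of 17 Y-linked cells. Ifi27l2a was 3.73-fold (2.55 to 5.67) and 3.64-fold (2.69 to 4.90) higher in the 2 sexes, and Isg15 3.28-fold (1.68 to 7.33) and 1.94-fold (1.23 to 2.99). Without the 11 members that also held genes of another cell type, the log2 ratio of the summed list was 0.63, against 0.70 with them. In the 44 and 24 members with few transcripts of mitosis or S phase it was 0.51.

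Other dendritic populations of the same libraries gave wider ratios for single genes. The list's median log2 ratio was 1.03 in cDC2, 1.76 in migratory cells and 0.83 in pDC. At least 2-fold higher were 29 of 54 genes in cDC2 (background 1.97%), 36 of 52 in migratory cells (4.51%) and 18 of 39 in pDC (1.66%). The summed level was 7436 and 13946 CPM in cDC2, 2380 and 9057 in migratory cells, and 7990 and 12065 in pDC, so cDC1 of the control library stood between migratory cells and cDC2. Isg15, at 63.4 and 170 CPM in cDC1, was at 72.4 and 475 CPM in cDC2 and at 89.3 and 927 CPM in migratory cells. Irf7, at 70.6 and 181 CPM in cDC1, was at 5.96 and 236 CPM in migratory cells. With 1 library per group, the differences among populations were not tested.

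**Figure D4:**
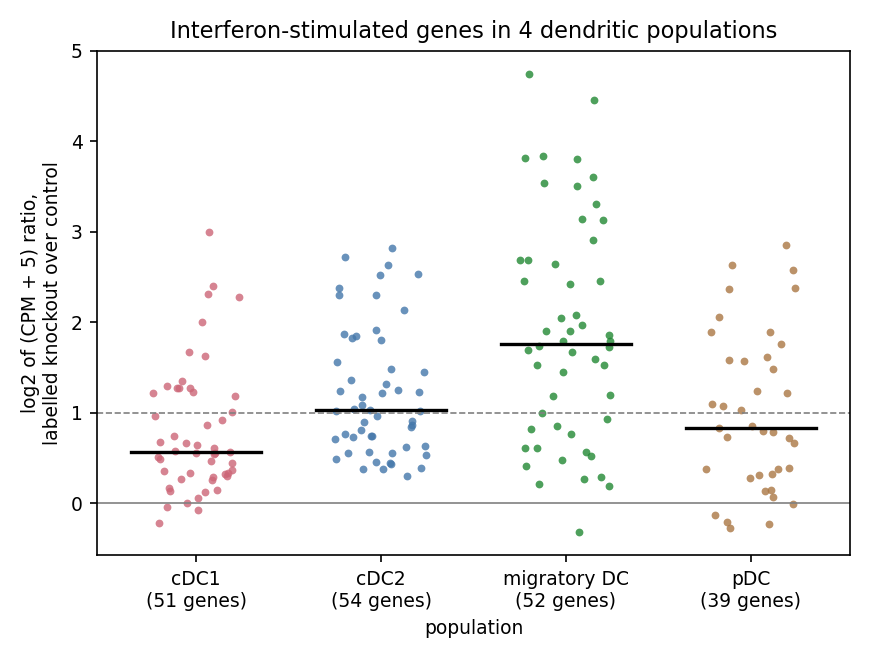
Log2 ratio of (CPM + 5), library labelled knockout over control, for each measured gene of the interferon-stimulated list (points) in cDC1 (51 genes), cDC2 (54), migratory dendritic cells (52) and pDC (39). Black bars are medians, 0.56, 1.03, 1.76 and 0.83, the solid line is equality and the dashed line is 2-fold. cDC1 have the lowest median of the 4.

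The receptor and signalling genes were mostly level. Of 18 measured, 1 was at least 2-fold higher, Irf7, and none lower. The receptor chains Ifnar1 (84.5 and 80.5 CPM) and Ifnar2 (66.0 and 62.1 CPM) had log2 ratios of -0.07 and -0.08. Stat2 and Irf9, factors downstream of the receptor, are interferon-stimulated themselves. Stat2 was at 69.3 and 104 CPM, 1.49-fold higher (1.15 to 1.95), and Irf9 at 54.1 and 82.1 CPM, 1.52-fold (1.12 to 2.05). Ifngr1, a chain of the interferon-gamma receptor, was at 217 and 152 CPM, a log2 ratio of -0.50, and Socs1, an inhibitor of both pathways, at 24.4 and 13.5 CPM. Of the enzymes that attach ISG15, Uba7 gave 42 and 22 UMIs and Ube2l6 gave 32 and 41, with ratios of 0.632 (0.359 to 1.08) and 1.55 (0.9501 to 2.54). No transcript of Ifnb1 or Ifna4 was seen in either library, which allows up to 1.98 and 2.39 CPM.

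Antigen presentation genes were close to level. All 23 genes of MHC class I presentation were measured, none passed 2-fold either way, and the summed level was 8362 and 9424 CPM, 1.13-fold higher (1.10 to 1.16). H2-D1 and H2-K1, the classical heavy chains, were 1.14-fold (1.06 to 1.23) and 1.10-fold (1.01 to 1.19) higher, and B2m, their light chain, 1.15-fold (1.07 to 1.23). Within the sexes H2-D1 was at 1.24 (1.06 to 1.46) in Xist cells and 0.974 (0.841 to 1.12) in Y-linked cells, and H2-K1 at 1.42 (1.18 to 1.73) and 0.854 (0.717 to 1.01), so neither has a stable direction. Tap1, the peptide transporter, was at 370 and 343 CPM. The summed class I ratio was 1.25 (1.18 to 1.32) in Xist cells and 1.06 (1.01 to 1.11) in Y-linked cells. For MHC class II, none of 14 genes passed 2-fold, and the sum was 37268 and 35942 CPM, a ratio of 0.964 (0.953 to 0.976). It turned to 1.15 (1.12 to 1.19) in Xist cells and 1.01 (0.990 to 1.04) in Y-linked cells, so no direction is read from it. The lowest class II gene was H2-Oa, part of the modulator of peptide loading, at 110 and 64.5 CPM, a ratio of 0.585 (0.443 to 0.768), and its partner H2-Ob was at 155 and 112 CPM.

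Genes for uptake of dead cells and cross-presentation, 22 measured, had a median log2 ratio of -0.10. The 1 gene past 2-fold was Mrc1, a mannose receptor, with 31 and 6 UMIs (background 0.593% for lower genes). A single control cell held 18 of the 31, and without barcodes marked by Scrublet, a doublet caller, the log2 ratio of Mrc1 went from -1.38 to -0.10. Without members of mixed type it was -0.37. Of 15 co-stimulatory and checkpoint genes measured none passed 2-fold. Cd86 was at 126 and 140 CPM, Cd40 at 15.2 and 13.5 CPM, and Cd274, the ligand PD-L1, at 10.6 and 7.17 CPM. None of 8 measured cytokine genes passed 2-fold either. Il12b, the cDC1 cytokine that drives T cell responses in tumors, gave only 2 UMIs in each library, and Il15 gave 14 and 12.

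Chemokines came from few cells. Cxcl9 and Cxcl10, which draw T cells through Cxcr3, gave 75 UMIs in 14 control cells against 92 in 12, and 125 UMIs in 2 cells against 57 in 6. For Cxcl10 a single control cell held 89.6%, and the log2 ratio went from -0.80 overall to 3.40 in Xist cells and -4.45 in Y-linked cells, so it has no stable direction. Cxcl10 in cDC2 measured 106 and 408 CPM. After thinning, Cxcl9 was seen in 5.79% and 7.45% of cDC1, and in 1.90% and 0.758% of B cells. Of 13 chemokines measured 4 were at least 2-fold higher (background 1.14%). Ccl2 gave 40 and 185 UMIs, of which 1 cell held 63.8% in the library labelled knockout. Ccl7, Ccl12 and Ccl5 gave 12 and 34, 3 and 19, and 4 and 21 UMIs. Without the members that also held genes of another type, the log2 ratios of Ccl2, Ccl7 and Ccl12 were 0.08, -0.21 and 0.30, in place of 2.28, 1.31 and 1.53. Ccl5 alone stayed past 2-fold there, at 1.66 in place of 1.51. Its ratio fell to 0.65 with a limit of 5 UMIs of Xcr1 and Clec9a, and to 0 with 5% free RNA subtracted.

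A large part of the cDC1 carried transcripts of dividing cells in both libraries. At least 10 UMIs of a list of 38 cell cycle genes were left after thinning in 43.0% of control cDC1 and 41.5% of the others, against 17.3% and 16.3% of cDC2, 35.6% and 29.9% of migratory cells and 2.37% and 2.27% of B cells. This limit was chosen after the values were seen, in place of 3 UMIs, and does not pick out dividing cells alone. At least 3 UMIs of the mitosis genes were held by 26.4% and 35.1% of cDC1, 12.4% and 12.6% of cDC2, and only 2.30% and 1.15% of migratory cells. The difference between libraries in cDC1 was -1.49 points (-14.5 to 11.7) for the longer list and 8.66 points (-3.64 to 20.9) for mitosis genes. With the lower limit of 3 UMIs the shares were 86.0% and 83.0%, and B cells reached 46.4% and 47.0%, so that limit separates cells poorly. Ratios of single genes split by phase. Of 12 genes of DNA replication, 11 were below 0, with a summed ratio of 0.691 (0.642 to 0.743). Mcm4 and Mcm7, subunits of the replicative helicase, were at 69.3 and 31.1 CPM and at 93.1 and 45.4 CPM. Of 21 mitosis genes 14 were above 0, with a summed ratio of 1.13 (1.07 to 1.19). Ube2c, which loads ubiquitin for the anaphase-promoting complex, was at 75.9 and 176 CPM, and Ccnb1, the mitotic cyclin B, at 22.4 and 53.4 CPM. The split into phases was made after the values were seen. In Xist cells both sums were lower, at 0.499 (0.440 to 0.566) and 0.579 (0.529 to 0.635). In Y-linked cells they were 0.737 (0.635 to 0.853) and 1.06 (0.951 to 1.18).

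**Figure D5:**
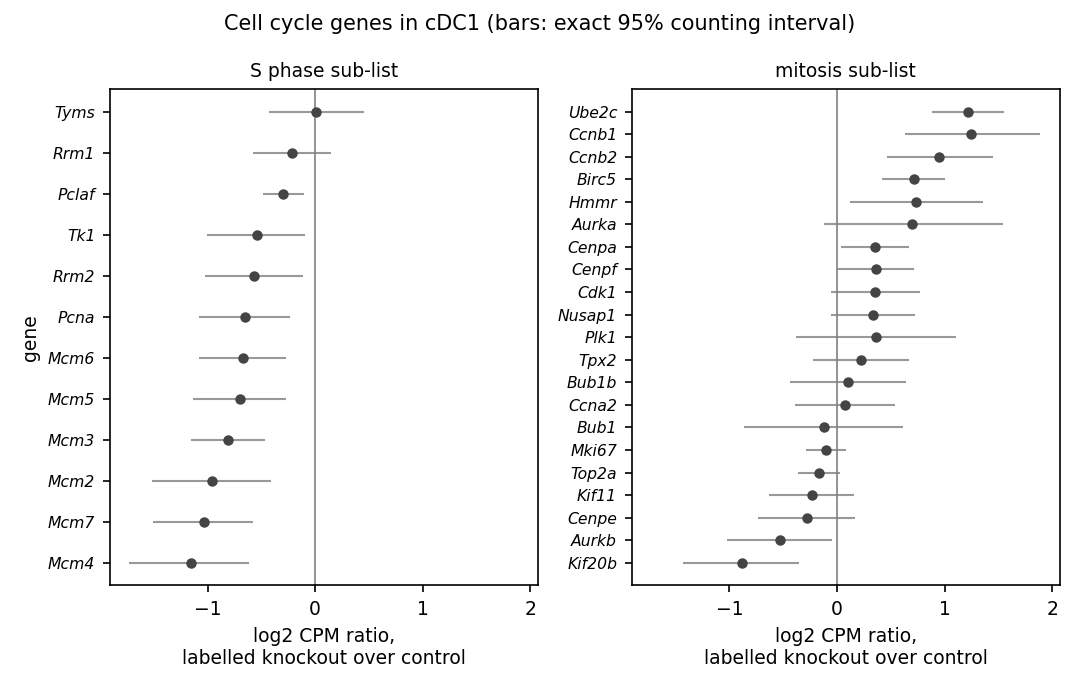
Log2 ratio of CPM (points) with exact 95% counting intervals (bars), library labelled knockout over control, for 12 DNA replication genes (left) and 21 mitosis genes (right) in cDC1. Among replication genes, 11 lie left of 0, and Ube2c and Ccnb1 lie farthest right among the mitosis genes. The intervals say nothing about the spread between mice.

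By the rule for named genes, the highest ratios outside the lists were Wdfy1, an adaptor linked to Tlr3, with 39 and 85 UMIs (2.63-fold, 1.78 to 3.95), and Fam234a, with 8 and 23 UMIs. After Lyz2, the lowest was Gda, guanine deaminase, with 63 UMIs in 15 cells against 8 in 7 cells, a ratio of 0.153 (0.0634 to 0.321). Gpr141, an orphan receptor, gave 113 UMIs in 51 cells and 28 in 22 cells, a ratio of 0.299 (0.190 to 0.456). Gpr141 was at 42.2 and 25.5 CPM in Xist cells and at 76.4 and 4.58 CPM in Y-linked cells. After thinning, Gpr141 was left in 10.7% and 4.26% of cDC1 and in 2.37% and 1.52% of B cells. The others were Ocstamp (37 and 9 UMIs), Prpf3, Itpr3, Hmga1, Tcf19, Brca2 and Tbc1d22b. Brca2, a recombination factor, and Tcf19, a gene of the start of S phase, gave 35 and 10 and 65 and 21 UMIs, beside the replication genes above.

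Genes of other cell types were measured in the same cells. Control cDC1 held 151 and 208 UMIs of the neutrophil genes S100a8 and S100a9, of which 3 cells held 94.7% and 96.2%. The other library held 0 and 2 UMIs. Melanoma genes Pmel, Dct, Mlana and Tyrp1 gave 24 and 619 UMIs, and 600 of the 619 came from 1 cell with 64534 UMIs in all. That cell also held Apoe, a macrophage gene. The 12 macrophage markers together gave 340 and 504 UMIs, 1.79-fold higher (1.56 to 2.06), beside 1.62-fold for the interferon-stimulated list. Of 8 measured, 3 were at least 2-fold higher, 1 was lower, and 7 were above 0. Without the members of mixed type the macrophage sum was 1.22-fold higher (1.01 to 1.47) and the interferon-stimulated sum 1.55-fold (1.49 to 1.604). In Y-linked cells the macrophage sum was lower, at 0.696 (0.476 to 0.989), and in Xist cells it was at 1.68 (1.22 to 2.35). Ly6c2, a monocyte gene, gave 19 and 116 UMIs, and 5 cells labelled knockout held 99 of the 116. Without the members of mixed type it gave 17 and 17 UMIs. The 10 monocyte markers together went the other way, with 2716 and 1864 UMIs, a ratio of 0.828 (0.780 to 0.879). Ly6c2 thus does not stand for that list, and no direction is read from the sum. Transcripts of T cells (4 and 14 UMIs over 8 markers) and B cells (12 and 5 over 8 markers) were near 0. Members of mixed type held at least 10 UMIs of S100a8 and S100a9, of Pmel, Dct, Mlana and Tyrp1, of Ly6c2 or of Apoe. The longer marker lists were not used for this. In all, 5 control members and 6 labelled knockout were of mixed type, and they were kept. Without them, 34 genes were at least 2-fold higher and 77 lower, in place of 94 and 49. Their part in the other results was not tested beyond the values given without them.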

How the data were processed

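Single-cell RNA was measured in 1 droplet library per group (10x Genomics Chromium 3' v3) with a target of 8000 cells each. The deposited matrices hold unnormalized UMI counts, made with Cell Ranger 3.0.1 on mm10, per the submitters' processing notes. The control library held 7754 barcodes and 43412346 UMIs, the library labelled knockout 6063 and 48167632. A barcode was kept (91.4% and 94.5%) if it had at least 200 genes and no more than 10% mitochondrial UMIs, and the rule given at the opening chose the cDC1. No doublets were removed. Scrublet, run in scanpy 1.11.5, marked 4 and 1 members and served as an alternative.

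UMIs were summed per library and population in Python 3.11.15 (scipy 1.17.1) and given as CPM of that sum. Shares carry exact Clopper-Pearson intervals, ratios of counts exact conditional binomial intervals, ratios of shares log-normal intervals, and differences of shares Newcombe intervals, all at 95%. A count of 0 was set at 3 UMIs. With 1 sample per group there is no test, and "called" means at least 2-fold. Thinning drew 2000 UMIs per cell without replacement and left out cells with fewer. The procedure was tested on simulated data. B cells were taken as barcodes with at least 3 Cd79a UMIs.

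The members and gene lists were chosen with earlier results of these data known. Genes of those lists could be named. Beyond them, the rule took the 10 highest and 10 lowest ratios among genes with at least 30 UMIs, seen in at least 10% of cells of the higher library, with no cell above 20% of the UMIs. Against the other dendritic populations it took the 15 widest margins above and the 10 widest below. Alternatives changed the UMI limit of the rule, the mitochondrial limit, doublets, depth, sex, pseudocount, scaling, cell weighting and free RNA.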

Additional observations from a re-analysis of the deposited data

Results flagged for a closer look

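The share of cDC1 among kept cells had ratios on either side of equality in the 2 sexes. Its log2 ratio, library labelled knockout over control, was 1.35 in cells with Xist and no Y-linked transcript and -0.10 in cells with Y-linked transcripts and no Xist. The first rests on 12 control cDC1, the second has an interval that spans 0 (-0.84 to 0.63), and the difference between the sexes was not tested.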

How the results depend on the processing

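No paired analysis was possible because each group is 1 library. The alternative that kept members with under 3 cell cycle UMIs was not run, since it left 1 control cell and none labelled knockout. Of 8 main results, the interferon-stimulated list, MHC class I and Usp18 kept their direction under all alternatives run. Only cells with Xist: log2 ratios were 0.31 for Usp18 (1.46 in all cells), 0.78 for the interferon-stimulated list (0.70), 0.32 for MHC class I (0.17), 0.21 for MHC class II (-0.05) and 1.35 for the cDC1 share (-0.04), with 386 genes at least 2-fold higher and 218 lower (94 and 49). Only cells with Y-linked transcripts gave 0.63 for the interferon list, 0.0858 for class I, 0.0189 for class II and 499 genes lower. A mitochondrial limit of 5% gave 0.79 for the interferon list, 0.0060 for class II, -0.53 for the share, and 59 genes higher and 75 lower. A limit of 5 UMIs of Xcr1 and Clec9a gave 0.79 for the interferon list. Without barcodes marked by Scrublet class II was at -0.0722, and with each cell weighted alike at -0.0139.

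Alternatives chosen after seeing the data follow. Without members that held genes of another type, the interferon list was at 0.63, class II at 0.0167, and 34 genes were higher and 77 lower. Members with few mitosis and S phase UMIs gave 2.47 for Usp18, 0.51 for the interferon list, 0.0703 for class I, and 56 genes higher and 227 lower. The limit of 10 cell cycle UMIs also belongs here. At least 3 mitosis UMIs were held with a difference of 8.66 points, library labelled knockout minus control, against -2.97 points with at least 3 UMIs of the cell cycle list. The latter also changed sign under alternatives fixed earlier, to 6.13 points thinned to 1000 UMIs and 0.83 points with no thinning. Counts of genes also moved with the pseudocount (175 higher and 138 lower at 1 CPM, 56 and 17 at 10 CPM), with 5% free RNA subtracted (76 lower), with no filter (165 higher) and with at least 100 UMIs (24 higher and 9 lower).

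Single genes past 2-fold that changed sign were these. In Y-linked cells Apoe was at -0.59, Ccl7 at -1.69, Dct at -1.20, Fcgr1 at -1.69, Mlana at -0.46 and Pmel at -0.64. In Xist cells Ifi44 was at -0.60 and Ube2c at -0.0010. With few cycle UMIs Apoe was at -0.47, Ccl2 at -0.45, Ccl7 at -2.51, Dct at -1.06, Hmga1 at 0.15, Oas3 at -0.038 and Pmel at -1.52. Without members of mixed type Ccl7 was at -0.21, Dct at -0.18 and Pmel at -0.76. With 5% mitochondrial UMIs Dct was at -0.12 and Pmel at -0.69, and with a limit of 2 UMIs Gbp2 was at -0.32. The cause was not tested. Depth limits genes below 20 UMIs, which were not compared.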

Other observations

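Over all cDC1, gene groups outside the interferon response were mostly level. Glycolysis and hypoxia genes, 17 measured, had a median log2 ratio of 0.21, and none passed 2-fold. Their summed level was 3466 and 4227 CPM in the control library and the library labelled knockout, 1.22-fold higher (1.17 to 1.27), with Gapdh at 1213 and 1629 CPM. The sum was at a ratio of 1.05 (0.974 to 1.13) in Xist cells and 0.890 (0.817 to 0.968) in Y-linked cells. It thus has no stable direction. Gapdh was at a ratio of 1.10 (0.976 to 1.25) in Xist cells and 0.871 (0.752 to 1.01) in Y-linked cells, so the difference over all cells was not seen within either sex. Of 17 sensors of nucleic acids and microbes, 1 was at least 2-fold lower (background 0.593%), the lectin Clec4n with 30 and 6 UMIs, and none higher. Its log2 ratio of -1.34 went to -0.02 without barcodes marked by Scrublet and to -0.25 with a limit of 2 UMIs of Xcr1 and Clec9a. None of 21 maturation genes and none of 22 survival and cell death genes passed 2-fold, with median log2 ratios of -0.06 and 0.00. The maturation sum was at a ratio of 1.27 (1.09 to 1.49) in Xist cells and 0.797 (0.682 to 0.927) in Y-linked cells. The survival and cell death sum was at 1.02 (0.904 to 1.16) and 0.868 (0.764 to 0.983). Of 9 chemokine and migration receptors measured, Ccr9 alone passed 2-fold, and Ccr2, the receptor that draws cells from blood, was at 548 and 429 CPM. Ccr2 was at a ratio of 1.10 (0.863 to 1.42) in Xist cells and 0.503 (0.384 to 0.649) in Y-linked cells.

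Over all cDC1, genes tied to interferon-gamma did not follow the interferon-stimulated list as a group. Of 16 measured, 2 were at least 2-fold higher (background 1.14%), Fcgr1, also a macrophage marker, with 13 and 41 UMIs and Gbp2 with 10 and 26 UMIs, and the summed ratio was 0.993 (0.905 to 1.09). Within the sexes that sum was at 1.82 (1.42 to 2.38) in Xist cells and 0.775 (0.639 to 0.934) in Y-linked cells. The interferon-stimulated list stood at 1.71 and 1.55 there. The interferon-gamma sum thus has no stable direction. Without members that held genes of another type, Fcgr1 and Gbp2 were at log2 ratios of 0.63 and 0.86, in place of 1.47 and 1.15. The 17 genes of the dissociation stress list had a median log2 ratio of -0.06 and a summed ratio of 0.970 (0.945 to 0.996). Its heat shock genes Hspa1b and Hspa1a stood lower, at 138 and 68.5 CPM and at 144 and 88.4 CPM. Hspa1b was seen in 33.9% and 14.7% of cDC1. After thinning to 2000 UMIs it was left in 17.4% and 8.51% of cDC1 and in 7.11% and 4.55% of B cells.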
